A study of Mus musculus with 9 samples.

Results

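The cells described here were forelimb bud mesenchymal cells that held transcripts of both *Hoxa13* and *Hoxd13* but none of *Shh*. They are called *Hoxa13*/*Hoxd13* cells below. A barcode had to show more than 2500 genes, fewer than 200000 unique molecular identifiers (UMIs, each the tag of 1 captured transcript) and less than 10% mitochondrial UMIs. It also had to hold at least 3 UMIs of the mesenchymal gene *Prrx1* and 0 UMIs of *Lbx1*, *Epcam*, *Cdh5* and *Tyrobp*, which mark muscle progenitors, ectoderm, endothelium and myeloid cells. Among such cells, the rule asked for at least 1 UMI of *Hoxa13*, at least 2 UMIs of *Hoxd13* and 0 UMIs of *Shh*. Of 133086 barcodes, 52432 passed the quality limits, 34671 were mesenchymal by these genes and 1178 met the whole rule. The levels of the genes that chose the cells are given as a description, without a test, and so are *Tfap2b*, *Jag1* and *Hey1* when *Hoxa13*/*Hoxd13* cells are set against other cells, since these genes had been picked as their markers.

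Single-cell RNA was sequenced from forelimb buds of mouse embryos at E10.75 (37 to 39 somites) on a Swiss Albino background, with 3 libraries per genotype, which the study treats as biological replicates, and droplet libraries counted the 3′ ends of transcripts. Wild-type (Wt) embryos carried no deletion, while E1C8Δ/Δ (EC1CRM8Δ/Δ) and E1C5Δ/Δ (EC1CRM5Δ/Δ) embryos were homozygous for germline alleles that lack limb bud enhancers of *Grem1* and leave the gene itself in place. Both alleles share the EC1 deletion and differ in the element removed with it, CRM8 or CRM5. The paper states that reporter assays gave no obvious enhancer activity for CRM8. The labels name no Cre driver or treatment. The question that the design puts to these cells is how the distal progenitors differ when enhancers of *Grem1* are missing.

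The *Hoxa13*/*Hoxd13* cells numbered 210, 327 and 42 in Wt replicates 1 to 3, 22, 150 and 165 in the E1C8Δ/Δ replicates and 50, 60 and 152 in the E1C5Δ/Δ replicates. They had a median of 43642 UMIs against 28708 in the other mesenchymal cells, and no barcode was shared between the libraries among them. Doublets were scored but kept, because the rule does not remove them, and 246 of the 1178 cells (20.9%) were called. By replicate the share called was 20%, 22.6% and 7.14% in Wt, 0%, 24.7% and 23.6% in E1C8Δ/Δ and 8%, 8.33% and 27.6% in E1C5Δ/Δ. In the other mesenchymal cells it was 11.2%, 9.29% and 4.55% in Wt, 2.31%, 9.75% and 20.7% in E1C8Δ/Δ and 9.84%, 6.84% and 14.4% in E1C5Δ/Δ. E1C8Δ/Δ replicate 1 had the fewest cells and stood apart on the first principal component of the summed expression of the *Hoxa13*/*Hoxd13* cells, at 59.9 against −16.9 to 1.98 for the other libraries. All 3 Wt libraries came from male embryos, and 2 of the 3 libraries of each mutant from females, so that sex and genotype cannot be fully told apart. *Xist* stood at 654 to 944 CPM in the libraries called female and at 0.0840 to 30.6 CPM in those called male, highest in Wt replicate 1 (30.6) and E1C8Δ/Δ replicate 3 (10.4), and Y-linked genes summed to at most 2.71 CPM and at least 104 CPM. Tests left out genes on the sex chromosomes.

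In the limb bud, *Hoxa13* and *Hoxd13* encode homeodomain proteins that specify the autopod, the part of the limb that forms the digits and wrist. The progenitors that express them lie under the apical ectodermal ridge, which sends FGF signals that keep the distal mesenchyme growing, while retinoic acid and the *Meis* genes mark the proximal limb. GREM1 binds bone morphogenetic proteins (BMPs) outside the cell, holds BMP activity down in the mesenchyme and so keeps the loop between SHH and ridge FGFs running. JAG1 is a ligand of Notch receptors, HEY1 and HES1 are transcriptional repressors that Notch signalling switches on, and TFAP2B is a transcription factor found in distal limb mesenchyme.

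The comparisons turn on *Tfap2b* and *Jag1*, which marked the cells and fell in the mutants, on *Msx1*, a BMP response gene that rose, and on *Grem1*, whose enhancers were deleted. The DNA just before their start sites is shown because BMP response genes are bound by SMAD factors, for which GC-rich motifs are known. The RefSeq windows on GRCm38.p6, the build the counts use as mm10, are printed 5′ to 3′ on the gene's own strand and end at the start site, except for *Jag1*, where the 124 bases nearest to the start were left out because GENCODE places an exon there. Capitals mark GGCGCC, which is its own reverse complement, or GGAGCC on either strand (read as GGCTCC on the other).
*Tfap2b*, chr1:19211804-19212053, plus strand: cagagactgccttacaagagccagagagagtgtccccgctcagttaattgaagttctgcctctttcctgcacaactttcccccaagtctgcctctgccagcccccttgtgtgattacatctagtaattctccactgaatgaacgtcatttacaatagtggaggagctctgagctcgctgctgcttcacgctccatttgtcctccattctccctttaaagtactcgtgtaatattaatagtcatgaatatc
*Jag1*, chr2:137116645-137116770, minus strand: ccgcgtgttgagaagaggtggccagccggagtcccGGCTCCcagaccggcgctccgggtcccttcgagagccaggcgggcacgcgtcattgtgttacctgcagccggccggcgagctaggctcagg
*Msx1*, chr5:37824586-37824835, minus strand: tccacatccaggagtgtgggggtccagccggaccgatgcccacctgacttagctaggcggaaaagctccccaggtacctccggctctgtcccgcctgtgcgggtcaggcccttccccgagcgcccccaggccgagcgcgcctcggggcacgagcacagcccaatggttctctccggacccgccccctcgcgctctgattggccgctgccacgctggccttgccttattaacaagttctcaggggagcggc
*Grem1*, chr2:113758649-113758898, minus strand: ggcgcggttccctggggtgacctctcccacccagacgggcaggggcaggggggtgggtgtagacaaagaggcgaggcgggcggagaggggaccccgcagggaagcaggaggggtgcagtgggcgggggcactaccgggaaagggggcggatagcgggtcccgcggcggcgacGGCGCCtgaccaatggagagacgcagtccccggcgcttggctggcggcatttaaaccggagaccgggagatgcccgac
The *Jag1* window held GGCTCC once, 215 bases before the start, and the *Grem1* window GGCGCC once, 78 bases before it, while the *Tfap2b* and *Msx1* windows held neither. GGCGCC was in 9.59% and GGAGCC in 26.0% of all 32851 windows of 250 bases, and in 3.97% and 12.8% of windows of 126 bases, and no match of 1 motif overlapped a match of the other in the windows shown. Of the 12 genes in the list of BMP response genes, 9 had an entry, and 3 of these held GGCGCC and 7 GGAGCC. A match of this kind describes letters, and its absence says nothing of a factor. The *Tfap2b* window lies within the gene, in an intron of its longer transcripts.

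The *Hoxa13*/*Hoxd13* cells carried the marker set that their name implies. In cells thinned to 10000 UMIs, 35.2% had a UMI of *Tfap2b*, 26.7% of *Jag1* and 41.7% of *Hey1*. In the other mesenchymal cells these shares were 2.27%, 4.06% and 8.38%, and in the blood cells of the same libraries, which lack these genes and show the background of free RNA, 1.09%, 1.24% and 2.29%. Without thinning the shares were 62.3%, 62.1% and 82.4% in the *Hoxa13*/*Hoxd13* cells and 3.67%, 5.30% and 8.60% in blood cells, whose median was 35946 UMIs. Of 2755 blood cells, 21 (0.762%) met the conditions on *Hoxa13*, *Hoxd13* and *Shh*. The summed level of 9 erythroid genes was 1318 to 5056 UMIs per 1000000 UMIs of the *Hoxa13*/*Hoxd13* cells (CPM) in Wt, 158 to 7732 in E1C8Δ/Δ and 225 to 1456 in E1C5Δ/Δ libraries. Ectoderm markers summed to 1.30 to 10.4, myeloid markers to 0.815 to 3.61 and muscle progenitor markers to 2.45 to 9.72 CPM. The 8 endothelial markers summed to 15 to 28.5, most of it *Egfl7*, and the Schwann and neural crest list to 5.71 to 11.2, with *Sox10* and *Foxd3*, which define these cells, at 0 UMIs in all 9 libraries.

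Levels of single genes are given on the same CPM scale, over the summed UMIs of a library's *Hoxa13*/*Hoxd13* cells, and are compared between cells or genotypes, not between genes. *Hoxd13* (chr2:74668310-74671599) was at 192, 166 and 224 CPM in Wt, 145, 147 and 143 in E1C8Δ/Δ and 120, 106 and 118 in E1C5Δ/Δ replicates. *Hoxa13* was at 68.4, 48.2 and 68.7 CPM in Wt, 53.8, 57.5 and 68.7 in E1C8Δ/Δ and 28.3, 51.7 and 27.6 in E1C5Δ/Δ replicates. All mutant libraries lay below all Wt libraries in *Hoxd13*, whereas *Hoxa13* overlapped between the groups. A single cell held 2 to 69 UMIs of *Hoxd13* and 1 to 27 of *Hoxa13*.

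*Tfap2b* and *Jag1* were higher inside the limit on *Hoxd13* than just outside it, and rose with the UMIs of *Hoxa13*. In Wt, the 83 cells at exactly 2 UMIs of *Hoxd13* held 21.5 CPM of *Tfap2b* and 17.2 CPM of *Jag1*, and the 139 cells left out at 1 UMI of *Hoxd13* held 18.1 and 12.1 CPM. In the mutants the 127 cells inside held 12.3 and 9.98 CPM and the 178 outside 6.80 and 7.59 CPM. *Hey1* was about level across this limit, with 39.7 CPM inside and 40.3 CPM outside over all libraries. Along *Hoxa13*, *Tfap2b* stood in Wt at 8.28 CPM in the 1097 *Hoxd13* cells with 0 UMIs of *Hoxa13*, at 49.9 in the 187 cells with 1 UMI and at 123 in the cells with 2 or more. In the mutants the same steps were 3.86, 22.1 and 33.5 CPM, with 2212, 280 and 319 cells. *Jag1* went through 10.675, 29.0 and 50.9 CPM in Wt and 5.93, 13.9 and 20.4 CPM in the mutants. *Hey1* went through 11, 29.6 and 62.5 CPM in Wt and 13.5, 41.9 and 71.4 CPM in the mutants. The median depths along these steps were 41399, 39814 and 52330 UMIs in Wt, where the last group was the deepest, and 40939, 38700 and 38200 in the mutants.

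**Figure D1:**
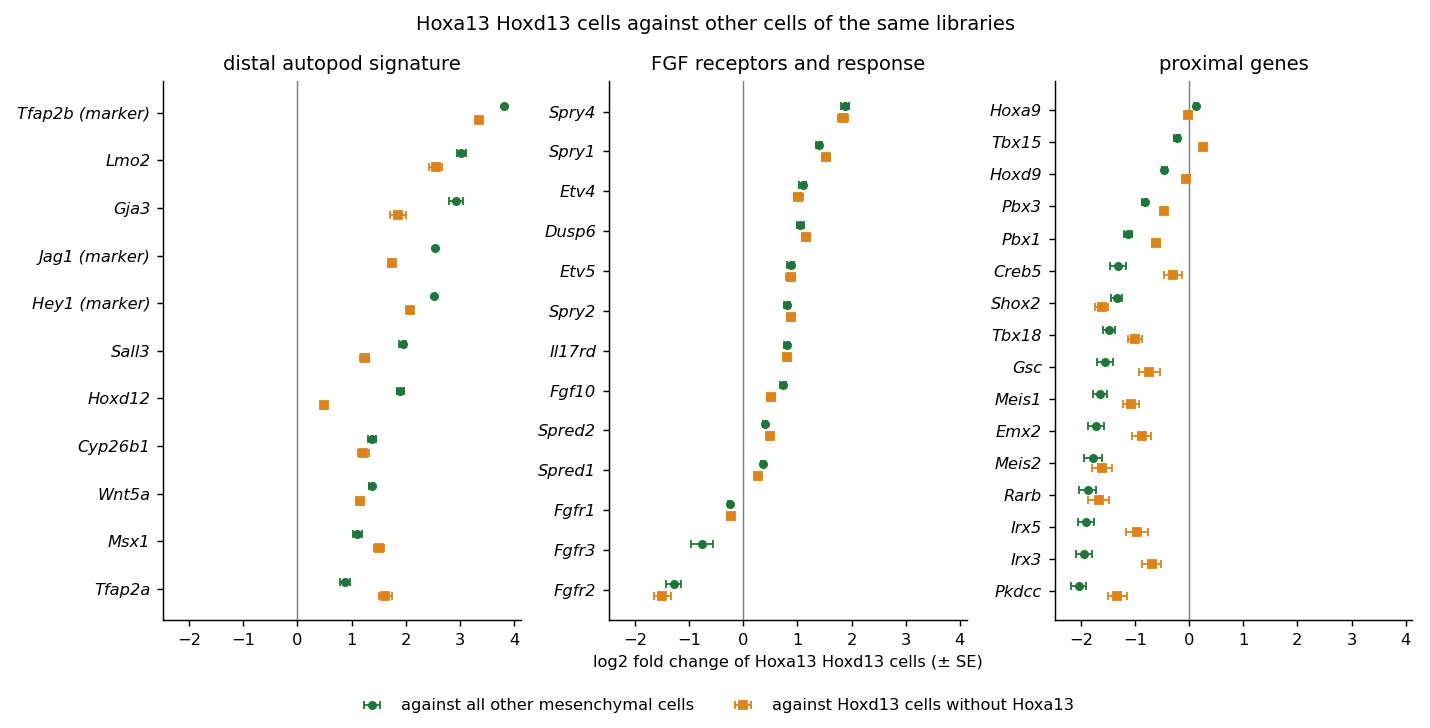
Log2 fold change with its standard error (bars) of *Hoxa13*/*Hoxd13* cells against all other mesenchymal cells (green circles) and against *Hoxd13* cells without *Hoxa13* (orange squares), from sums per library, for genes of the distal signature, of the FGF response and of the proximal limb. The markers *Tfap2b*, *Jag1* and *Hey1* are shown without errors, as a description. Distal signature genes lie to the right of 0 in both comparisons, and 15 of the 16 proximal genes lie to the left of 0 against all other mesenchymal cells.

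Against the other mesenchymal cells, the *Hoxa13*/*Hoxd13* cells were high in distal and FGF response genes and low in proximal ones. Apart from the 3 markers, all 8 tested genes of the distal autopod signature were higher, with a median log2 fold change of 1.64 against 0.0078 over all 12351 genes tested, where 24.5% of genes were called higher and 20.9% lower (45.4% in either direction). *Lmo2*, a transcriptional cofactor, stood at 128 ± 42.8 CPM (SD, n = 3) in Wt *Hoxa13*/*Hoxd13* cells and 14.2 ± 1.45 in the other Wt cells. Its log2 fold change over all libraries was 3.03 ± 0.08 (SE). As a description, the markers differed by 3.82 for *Tfap2b*, 2.54 for *Jag1* and 2.52 for *Hey1*. Values in parentheses are log2 fold changes here and below. The list also held *Sall3* (1.94), *Cyp26b1*, which degrades retinoic acid (1.38), and *Wnt5a*, a distal WNT ligand (1.37). Part of it was picked by the study from these libraries, so its direction is not independent evidence. Outside the list, *Evx1*, a homeobox gene next to the HoxA cluster, was higher by 3.62 ± 0.13, *Tspan18* by 2.78 and *Sall1* by 2.32.

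Of 13 FGF receptor and response genes, 10 were higher and 3 lower, with a median of 0.80. The ridge FGF targets *Spry4* (1.88), *Spry1* (1.39), *Etv4* (1.09) and *Dusp6* (1.06), which encode feedback inhibitors and a transcription factor, were among those higher, as was *Fgf10* (0.74), the mesenchymal ligand that maintains the ridge. The receptors *Fgfr2* (−1.28), *Fgfr1* (−0.25) and *Fgfr3* were lower. Of 16 proximal genes, 15 were lower, with a median of −1.52. *Meis2* stood at 78.2 ± 47.4 CPM in Wt *Hoxa13*/*Hoxd13* cells and 247 ± 9.61 in other Wt cells (log2 fold change −1.78), and *Pkdcc* (−2.04), *Irx3* (−1.94), *Rarb*, a retinoic acid receptor (−1.87), and *Meis1* (−1.65) lay with it. The exception was *Hoxa9* at 0.13.

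The cartilage genes *Sox9*, the master regulator of chondrogenesis, and *Col2a1* were lower (−1.34 and −1.49), with 6 of 9 list genes lower and none higher. In the HoxA and HoxD clusters 9 of 17 tested genes were higher, among them *Hoxd12* (1.90), *Hoxd11* (1.12) and *Hoxa11* (0.73), and 5 were lower, among them *Hoxd9* (−0.46), *Hoxd4* (−0.42) and *Hoxd3* (−0.56). The Notch list split, with *Nrarp*, a feedback inhibitor (2.57), higher and *Notch1*, *Notch2* and *Jag2* lower. So did the Hedgehog list, in which *Ptch1* (0.85) and *Gli1* (0.86), the targets of the pathway, were higher and the coreceptors *Cdon* (−1.57) and *Gas1* (−0.69) lower. All 8 erythroid genes tested were lower (median −1.15) and 8 of 11 dissociation stress genes (median −0.43), and their part in the other differences was not tested. Named genes other than the markers had adjusted p at or below the threshold of 0.05 in edgeR's quasi-likelihood test with Benjamini-Hochberg adjustment, with each library's pair of sums blocked. *Id1* and *Smad7*, BMP response genes called higher here, turned to −0.12 and −0.015 in Wt libraries alone, and the cell cycle genes *Cenpf* and *Plk1* to −0.10 and −0.057 among cells of like depth, a fit without E1C8Δ/Δ replicate 1. *Notch1* was not called in Wt libraries alone (−0.14, edgeR adjusted p = 0.266), *Hoxa9* neither there nor at like depth, *Fgfr3* neither at like depth nor without Wt replicate 2, and *Jag2* neither without Wt replicate 1 (edgeR adjusted p = 0.0696) nor at 3 or more UMIs of *Hoxd13* (edgeR adjusted p = 0.0549).

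Cells with *Hoxd13* but without *Hoxa13* or *Shh* are close neighbours by the rule, and 3309 of them were found. The distal signature was higher in the *Hoxa13*/*Hoxd13* cells than in these cells too. Apart from the markers, all 8 genes were higher, with a median of 1.37 against 0.0053 over 11107 genes tested, of which 25.6% were called, 13.4% higher and 12.2% lower. On the log2 scale *Lmo2* differed by 2.55 and *Hoxd12* by 0.48. The markers, again as a description, differed by 3.35 for *Tfap2b*, 2.08 for *Hey1* and 1.75 for *Jag1*. FGF response genes were higher again, 10 of 12, and 12 of 16 proximal genes lower. Of 7 posterior genes, 5 were lower and 2 higher. *Osr1* (−2.43), *Tbx2* (−1.75), *Tbx3* (−1.38) and *Hand2* (−0.37) were lower in the *Hoxa13*/*Hoxd13* cells, as was *Grem1* (−0.74). *Ptch1* (0.13, edgeR adjusted p = 0.159) and *Gli1* (−0.04, edgeR adjusted p = 0.825) were not called, unlike in the comparison with all other mesenchymal cells.

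Cells that met the rule except that they held *Shh*, the posterior signalling centre, shared much of the marker set. There were 481 of them, with at least 20 in each of 6 libraries, which were tested. As a description, the log2 difference was −0.04 for *Tfap2b* and 0.20 for *Hey1*, while that for *Jag1* was 0.95 in favour of the *Hoxa13*/*Hoxd13* cells. Of 10864 genes, 5.56% were called, 2.49% higher and 3.07% lower. Over these 6 libraries, 2 Wt and 4 mutant, *Grem1* had a mean of 25.6 CPM (10.2 to 56.5) in *Hoxa13*/*Hoxd13* cells and of 6.79 CPM (3.28 to 12) in *Shh* cells, with a fitted log2 difference of 2.00 ± 0.15. *Bmp4* went the other way, with means of 89.7 (64.7 to 123) and 281 CPM (205 to 321) and a difference of −1.67 ± 0.08, with *Bmp7* (−0.75) and *Bmp2* (−0.66) also lower. *Prdm1* (−2.45), *Tbx2* (−2.31), *Tbx3* (−1.74) and *Hand2* (−1.09) of the posterior list, *Dkk1* (−1.50), *Msx2* (−0.96) and *Cck* (−5.37) were lower, and *Asb4* (1.66), *Enpp2* (1.67), *Rspo3* (1.29), *Epha4* (1.19), *Gas1* (1.16) and *Sall3* (0.99) higher. *Ptch1*, a receptor and target of SHH, was lower (−0.71). In place of 604 genes in edgeR, 390 were called without Wt replicate 1, and DESeq2 called 354.

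**Figure D2:**
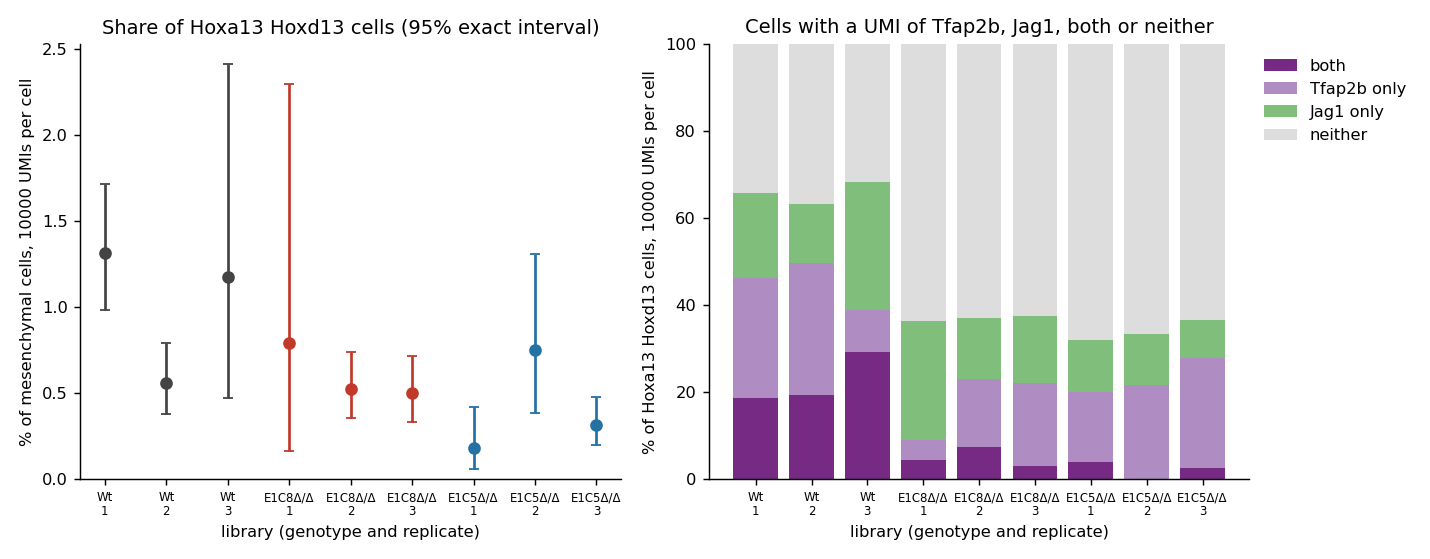
Left, percent of mesenchymal cells that met the rule after thinning each cell to 10000 UMIs, per library with its 95% exact interval; right, percent of thinned *Hoxa13*/*Hoxd13* cells with a UMI of both *Tfap2b* and *Jag1*, of *Tfap2b* only, of *Jag1* only and of neither. Shares overlap between genotypes on the left, and cells with neither gene make up 31.7% to 36.8% in Wt and 62.6% to 68.0% in the mutants on the right.

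The share of mesenchymal cells that met the rule was lower on average in the mutants at every depth tried. After a single random thinning it was 1.31%, 0.560% and 1.18% in Wt, 0.792%, 0.525% and 0.501% in E1C8Δ/Δ and 0.181%, 0.752% and 0.317% in E1C5Δ/Δ replicates. Of the 6 mutant libraries, 4 lay below all Wt libraries, and the mean was 0.511 ± 0.238% against 1.02 ± 0.402% (two-sided exact permutation test, p = 0.0595, where 3 against 6 can go no lower than 0.0119). Wt replicate 2, with 31 cells in this draw, was low in it. As the mean of 100 draws it stood at 0.854%, beside 1.19% and 1.502% in the other Wt replicates. The E1C8Δ/Δ replicates then stood at 0.932%, 0.515% and 0.531%, the E1C5Δ/Δ replicates at 0.211%, 0.543% and 0.273%, and 5 of 6 mutant libraries lay below all Wt libraries (two-sided exact permutation test, p = 0.0238). Without thinning, 5.11%, 5.76% and 7.11% of Wt cells met the rule, and the mutant mean was 3.01 ± 1.32% against 5.99 ± 1.02% (two-sided exact permutation test, p = 0.0238). The male mutant libraries, E1C8Δ/Δ replicate 3 and E1C5Δ/Δ replicate 2, had thinned shares of 0.501% and 0.752%. Because a cell enters by its UMIs of *Hoxa13* and *Hoxd13*, fewer cells of this kind and less RNA of these genes per cell cannot be told apart. Thinned to 5000 UMIs, the means were 0.0320% and 0.221% (two-sided exact permutation test, p = 0.0119). This setting rests on few cells, 8, 6 and 1 in Wt, 0, 3 and 3 in E1C8Δ/Δ and 0, 0 and 3 in E1C5Δ/Δ replicates. The p was below 0.05 in 6 of 8 other settings and in 3 of 9 fits that left out 1 library, Wt replicate 2, E1C8Δ/Δ replicate 1 or E1C5Δ/Δ replicate 2. Among *Hoxd13* cells without thinning, the share with *Hoxa13* was 33.8% to 35.6% in Wt and 33.3% to 36.7% in E1C8Δ/Δ libraries, and 10.6%, 28.4% and 13.2% in the E1C5Δ/Δ replicates. After thinning it was 24.8%, 14.2% and 21.9% in Wt, 21.4%, 18.7% and 21.8% in E1C8Δ/Δ and 6.25%, 21.4% and 6.90% in E1C5Δ/Δ replicates, so that E1C5Δ/Δ replicate 2 lay within the Wt range. This is a description that was not tested because both genes are in the rule.

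Within the *Hoxa13*/*Hoxd13* cells, those with *Tfap2b* and *Jag1* were less frequent in the mutants. In thinned cells, a UMI of *Tfap2b* was found in 46.2%, 49.7% and 39.0% of cells of the Wt replicates, and in 18.0 ± 7.77% of cells in E1C8Δ/Δ and 23.2 ± 4.22% in E1C5Δ/Δ libraries (SD, n = 3 each). *Jag1* was found in 38.5%, 32.8% and 58.5% of Wt cells, 23.9 ± 7.0% in E1C8Δ/Δ and 13 ± 2.6% in E1C5Δ/Δ. Both genes were present in 22.4 ± 5.91% of Wt cells, 5.02 ± 2.22% of E1C8Δ/Δ and 2.22 ± 2.04% of E1C5Δ/Δ cells, and neither in 34.2 ± 2.55%, 63.0 ± 0.552% and 66.0 ± 2.40%. Every mutant library lay below every Wt library for *Tfap2b* (−24.3 points), *Jag1* (−24.8 points) and both together (−18.8 points). Each gave the smallest p the design allows (two-sided exact permutation test, p = 0.0119, 0.0159 after adjustment over the 4 shares tested). The study had picked both genes from these libraries partly because they fell in the mutants, so these p are not independent evidence. *Hey1* did not separate, with 44.8 ± 12.5% of Wt, 50.1 ± 1.44% of E1C8Δ/Δ and 36.1 ± 5.36% of E1C5Δ/Δ cells (−1.72 points, two-sided exact permutation test, p = 0.798). Without thinning, *Jag1* was found in 78.6% of Wt and 52.8% of mutant cells and no longer passed (two-sided exact permutation test, adjusted p = 0.111), whereas *Tfap2b* (70.8% and 50.0%) and both together (60.02% and 27.0%) did (adjusted p = 0.0476, two-sided exact permutation test). In thinned cells *Jag1* separated narrowly, with 31.8% of 22 cells in E1C8Δ/Δ replicate 1 and 32.8% in Wt replicate 2. Unthinned, that E1C8Δ/Δ library stood at 86.4%, above the Wt replicates at 73.8%, 78.6% and 83.3%.

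**Figure D3:**
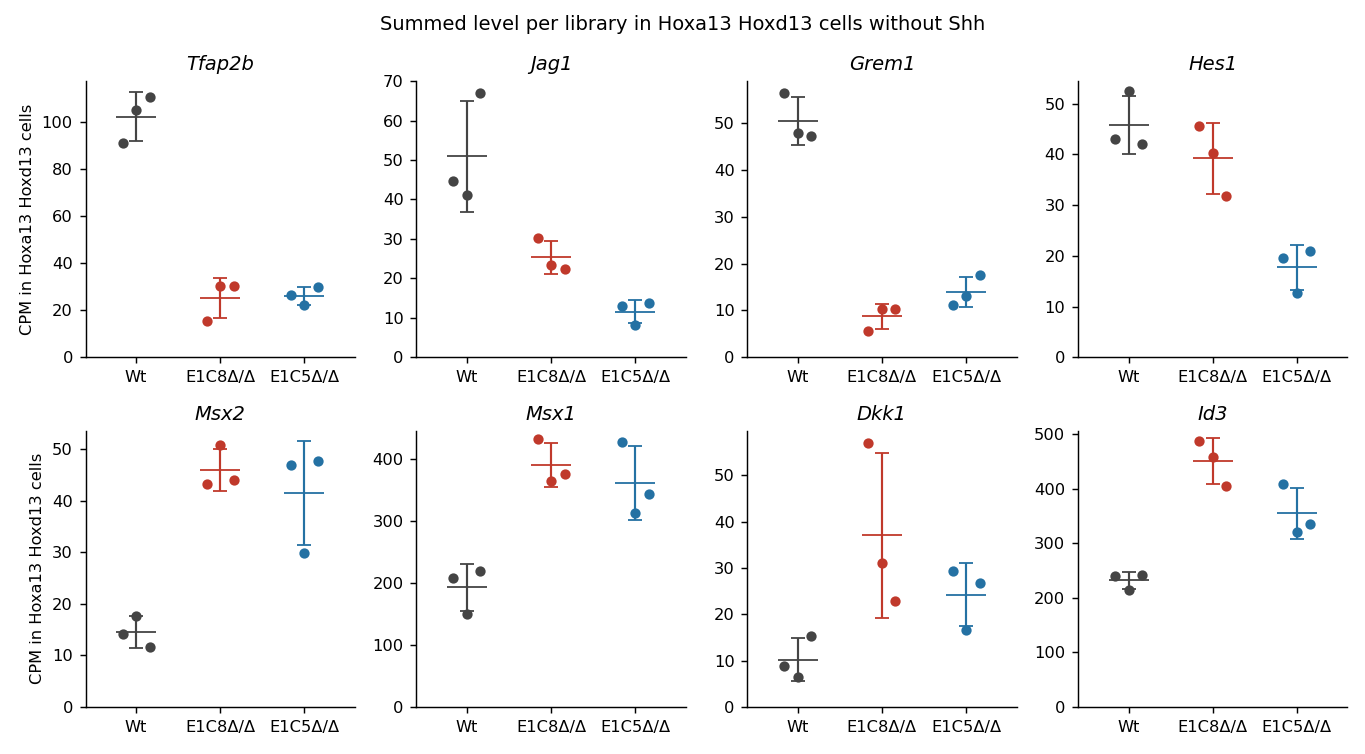
Level of 8 genes in *Hoxa13*/*Hoxd13* cells of each library (CPM; points, with the mean and SD of each genotype). *Tfap2b*, *Jag1* and *Grem1* are lower in every mutant library than in every Wt library, *Msx1*, *Msx2*, *Dkk1* and *Id3* are higher, and *Hes1* is lower in E1C5Δ/Δ but overlaps Wt in E1C8Δ/Δ.

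In summed expression, *Grem1*, *Tfap2b* and *Jag1* fell in the mutant *Hoxa13*/*Hoxd13* cells and 6 of 10 BMP response genes rose. Of 10754 genes, 84 were called with both mutants against Wt (0.781%), 38 higher (0.353%) and 46 lower (0.428%). *Grem1* (chr2:113746164-113758646), the gene whose enhancers were deleted, was at 56.5, 47.9 and 47.3 CPM in Wt, 5.71, 10.2 and 10.4 in E1C8Δ/Δ and 11.2, 13 and 17.6 in E1C5Δ/Δ replicates. Its log2 fold change was −2.09 ± 0.14 (SE, edgeR adjusted p = 4.54e-06). *Tfap2b* (chr1:19208914-19238576) was at 91.0, 105 and 111 CPM in Wt, 15.5, 30.3 and 30.1 in E1C8Δ/Δ and 26.6, 22.1 and 29.8 in E1C5Δ/Δ replicates (−1.90 ± 0.14, edgeR adjusted p = 8.78e-06). *Jag1* (chr2:137081456-137116644) was at 44.6, 41.0 and 67.1 CPM in Wt, 30.2, 23.4 and 22.3 in E1C8Δ/Δ and 12.9, 8.12 and 13.7 in E1C5Δ/Δ replicates (−1.52 ± 0.17, edgeR adjusted p = 0.000539). None of the 3 genes overlapped between Wt and mutants, which was so for 1.99% of all genes with the mutants below and 1.99% with the mutants above Wt. *Tfap2b* and *Jag1* had been picked by the study partly for their fall in these libraries, so their tests are not independent evidence. *Fmn1*, the neighbour of *Grem1* on chromosome 2 and named after its values were seen, fell with it (−2.01 ± 0.28, edgeR adjusted p = 0.00437). Its levels were low, 5.02 to 6.48 CPM in Wt and 0 to 1.96 CPM in the mutants.

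Of 10 BMP response genes tested, 6 rose and none fell, with a median of 0.75 against −0.0020 over all genes. The study had already reported *Id1*, *Id2*, *Msx1*, *Msx2* and *Prrx2* as raised in mutant progenitors of these libraries. The direction of the list is therefore not independent evidence. With embryo sex as a covariate only *Msx2* of the 6 was still called, and the adjusted p of the others was 0.141 for *Msx1* and *Id3*, 0.280 for *Bambi*, 0.370 for *Id1* and 0.471 for *Id2* in edgeR. Over all alternative fits the log2 fold change was 0.851 to 1.22 for *Msx1*, 0.697 to 0.947 for *Id3* and 0.565 to 0.725 for *Bambi*. It was 0.607 to 0.830 for *Id1* and 0.599 to 1.09 for *Id2*. *Msx2*, a homeobox gene that BMPs induce in limb mesenchyme, was at 14.1, 17.7 and 11.6 CPM in Wt, 43.2, 50.7 and 44.0 in E1C8Δ/Δ and 46.8, 29.9 and 47.7 in E1C5Δ/Δ replicates (1.57 ± 0.16, edgeR adjusted p = 0.000329). *Msx1* was at 209, 150 and 220 CPM in Wt, 432, 366 and 377 in E1C8Δ/Δ and 428, 313 and 344 in E1C5Δ/Δ replicates (1.00 ± 0.14, edgeR adjusted p = 0.00476). Every mutant library exceeded every Wt library for both genes. The inhibitors of differentiation *Id3* (0.81 ± 0.11, edgeR adjusted p = 0.00437), *Id2* (0.79 ± 0.17, edgeR adjusted p = 0.0448) and *Id1* (0.77 ± 0.15, edgeR adjusted p = 0.0315) and the BMP pseudoreceptor gene *Bambi* (0.65 ± 0.12, edgeR adjusted p = 0.0197) completed the group. *Id4* (0.73), *Prrx2* (0.37), *Smad7* (0.24) and *Smad6* (−0.15), the last 2 being inhibitory SMADs, did not pass. Of the ligand and receptor list only *Bmp4* rose (0.53 ± 0.10, edgeR adjusted p = 0.0298), and of the antagonists only *Grem1* fell. *Bambi* lost its call without Wt replicate 1 or 2, *Bmp4* without any 1 of the Wt or E1C8Δ/Δ libraries, *Id1* without any of the Wt libraries, E1C8Δ/Δ replicate 1 or 2 or E1C5Δ/Δ replicate 2, and *Id2* without any library but Wt replicate 1 or E1C5Δ/Δ replicate 2.

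Of 11 tested genes of the distal signature, *Tfap2b* and *Jag1* fell, *Msx1* rose and 8 did not pass. The log2 fold change was below 0 for 8 of the 11, with a median of −0.31. *Hey1* was at 60.4, 44.8 and 79.3 CPM in Wt, 113, 67.1 and 70.5 in E1C8Δ/Δ and 43.4, 43.2 and 46.6 in E1C5Δ/Δ replicates (0.02 ± 0.17, edgeR adjusted p = 0.991). The groups overlapped, with E1C8Δ/Δ at the upper and E1C5Δ/Δ at the lower end. *Lmo2* (0.21), *Gja3* (−0.12), *Sall3* (−0.31), *Wnt5a* (−0.39), *Cyp26b1* (−0.43) and *Hoxd12* (−0.61) were not called either (edgeR adjusted p = 0.147, 0.193 and 0.146 for the last 3). *Wnt5a* lay below every Wt library in all 6 mutant libraries, as did 1.99% of all genes. *Cyp26b1* and *Hoxd12* did so in 5 of 6, for which no share over all genes was counted. In the HoxA and HoxD list *Evx2*, next to *Hoxd13*, fell (−1.68 ± 0.33, edgeR adjusted p = 0.0316), as 1 of 18, at levels of 2.64 to 4.70 CPM in Wt, in a call that was kept only without Wt replicate 1 or E1C8Δ/Δ replicate 2 when 1 library was left out.

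In the fit of both mutants against Wt, the Notch genes that were called fell. Of 10 tested, *Jag1*, *Hes1* and *Notch1* fell and none rose, with a median of −0.26. *Jag1* had been picked by the study partly for its fall. In E1C8Δ/Δ alone *Hes1* (−0.27) and *Notch1* (−0.68) were not called. *Hey1* lay at 0.44 in E1C8Δ/Δ and −0.41 in E1C5Δ/Δ and was called in neither. *Hes1*, a Notch target, was at 43.1, 52.5 and 42.0 CPM in Wt, 45.7, 40.3 and 31.7 in E1C8Δ/Δ and 19.6, 12.7 and 21 in E1C5Δ/Δ replicates (−0.80 ± 0.14, edgeR adjusted p = 0.019). *Notch1*, a receptor, was at 10.0 to 11 CPM in Wt and 1.96 to 8.41 CPM in the mutants (−1.19 ± 0.22, edgeR adjusted p = 0.0198). *Nrarp* (−0.89) did not pass (edgeR adjusted p = 0.157). *Hes1* lost its call without Wt replicate 2 or E1C8Δ/Δ replicate 3, and *Notch1* without Wt replicate 1 or 2 or E1C8Δ/Δ replicate 3. *Notch1* was also not called among cells of like depth in 7 libraries (edgeR adjusted p = 0.175, against 0.0374 in these libraries at all depths). Nor was it called with embryo sex as a covariate (edgeR adjusted p = 0.291). The log2 fold change of *Notch1* ran from −1.391 to −1.003 over all alternative fits, beside −1.19 in the main fit.

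Of 18 WNT pathway genes tested, 3 secreted modulators rose, none fell and 15 did not pass, with a median of 0.12. *Dkk1*, an inhibitor of WNT coreceptors that BMPs can induce, was at 8.92, 6.43 and 15.4 CPM in Wt, 57.1, 31.1 and 23.0 in E1C8Δ/Δ and 29.4, 16.6 and 26.8 in E1C5Δ/Δ replicates (1.67 ± 0.29, edgeR adjusted p = 0.0174). *Rspo4*, an activator of WNT signalling, was at 1.57 to 8.65 CPM in Wt and 13.7 to 37.0 CPM in the mutants (1.67 ± 0.30, edgeR adjusted p = 0.0197), and *Notum*, which inactivates WNT ligands, at 2.51 to 2.91 and 3.90 to 10.6 CPM (1.34 ± 0.22, edgeR adjusted p = 0.00966). No mutant library overlapped Wt for these 3 genes. *Sfrp1* (−0.48), *Frzb* (−0.11) and *Nkd1* (−0.05) were among those that did not pass. *Rspo4*, *Msx1*, *Msx2* and *Bambi* also made up the 4 of 10 genes of the peripheral progenitor signature that rose. The study had picked *Msx2* and *Rspo4*, with *Asb4* and *Lhx2*, for its score of these progenitors as genes raised in the mutants. Here *Asb4* (0.16 in E1C8Δ/Δ and 0.06 in E1C5Δ/Δ) and *Lhx2* (0.18 and 0.27) were not called in either mutant against Wt. Without Wt replicate 2 none of the 3 WNT modulators passed, and without Wt replicate 1 *Dkk1* did not. *Notum* was not called among cells of like depth in 7 libraries (edgeR adjusted p = 0.106), nor in these libraries at all depths (edgeR adjusted p = 0.0527). *Rspo4* (edgeR adjusted p = 0.0759) and *Dkk1* (edgeR adjusted p = 0.0535) were not called in cells with at least 3 UMIs of *Hoxd13*, a fit without E1C8Δ/Δ replicate 1. With embryo sex as a covariate none of the 3 was called. Over all alternative fits the log2 fold change was 1.15 to 1.98 for *Dkk1*, 1.42 to 2.62 for *Rspo4* and 1.05 to 1.41 for *Notum*.

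Among genes outside the lists, *Snai1*, a transcriptional repressor, rose by 1.05 ± 0.16 (edgeR adjusted p = 0.00954), and *Socs2*, *Nap1l5* and *Zfp503* rose by 0.89, 0.94 and 0.90. *Enpp2*, which makes lysophosphatidic acid, fell, with 22.3 to 25.8 CPM in Wt and 4.80 to 9.10 CPM in the mutants (−1.70 ± 0.19, edgeR adjusted p = 0.000539). *Trp53i11* (−1.70), *Osr2* (−1.57) and *Cxcl14* (−1.22) fell as well. *Eif3j2* fell (−2.76 ± 0.44) but has a near-identical copy, *Eif3j1*, between which reads could be split. No gene passed in the lists for FGF response (12 tested), Hedgehog response (11), proximal genes (16), posterior genes (7), cartilage (7), G2/M (15), S phase (15) and dissociation stress (9), nor any marker of another lineage. *Alx1* of the anterior list rose (1.03) and *Ephb2* of the ephrin list fell (−0.69), each in a call that passed in 1 of the 9 fits that left out 1 library, the one without E1C5Δ/Δ replicate 3. *Nap1l5* lost its call without any of 6 libraries, *Zfp503* without Wt replicate 2 or 3 or E1C8Δ/Δ replicate 1, *Osr2* without Wt replicate 2 or E1C8Δ/Δ replicate 1 or 3 and after doublets were removed, *Cxcl14* without Wt replicate 2 or 3 or E1C8Δ/Δ replicate 3, and *Snai1* and *Socs2* without Wt replicate 2.

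These calls depended on whether embryo sex entered the fit and on single libraries. All Wt libraries were male, so the sex term rests on the mutant libraries alone and cannot fully separate sex from genotype. With sex as a covariate 6 genes were called in place of 84, and of the named genes *Grem1* (edgeR adjusted p = 0.00217), *Tfap2b* (0.00331), *Jag1* (0.0175), *Msx2* (0.0175) and *Hes1* (0.0331) were among them. Among male embryos alone, 3 Wt libraries and 1 of each mutant, *Grem1* and *Tfap2b* passed (edgeR adjusted p = 0.00434 for each). Among cells of like depth (within the interquartile range), Wt replicate 3 and E1C8Δ/Δ replicate 1 held too few cells to be tested, and 10 of the 27 named genes lost the call. Of these, *Evx2*, *Id1*, *Ephb2*, *Nap1l5*, *Alx1*, *Notum* and *Bmp4* also lost it in the same 7 libraries with cells of all depths, where 12 did, whereas *Notch1*, *Socs2* and *Bambi* lost it at like depth and not there. At 3 or more UMIs of *Hoxd13*, which left out E1C8Δ/Δ replicate 1, 8 genes lost the call. *Evx2*, *Id1*, *Ephb2*, *Nap1l5*, *Alx1* and *Id2* also lost it without that library in the whole set of cells, and *Rspo4* and *Dkk1* did not. Without Wt replicate 2, the library with the most *Hoxa13*/*Hoxd13* cells, 23 genes were called and 18 of the 27 named genes lost the call. Without Wt replicate 3 and without E1C8Δ/Δ replicate 1, 50 and 46 genes were called. The genes *Grem1*, *Tfap2b*, *Jag1*, *Msx1*, *Msx2*, *Id3*, *Enpp2*, *Trp53i11* and *Eif3j2* passed in all 9 fits that left out 1 library. The direction of these named genes was the same in every fit that tested them. Over the alternative fits the log2 fold change ran from −2.02 to −1.43 for *Enpp2*, 0.829 to 1.15 for *Snai1* and −0.785 to −0.346 for *Ephb2*.

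**Figure D4:**
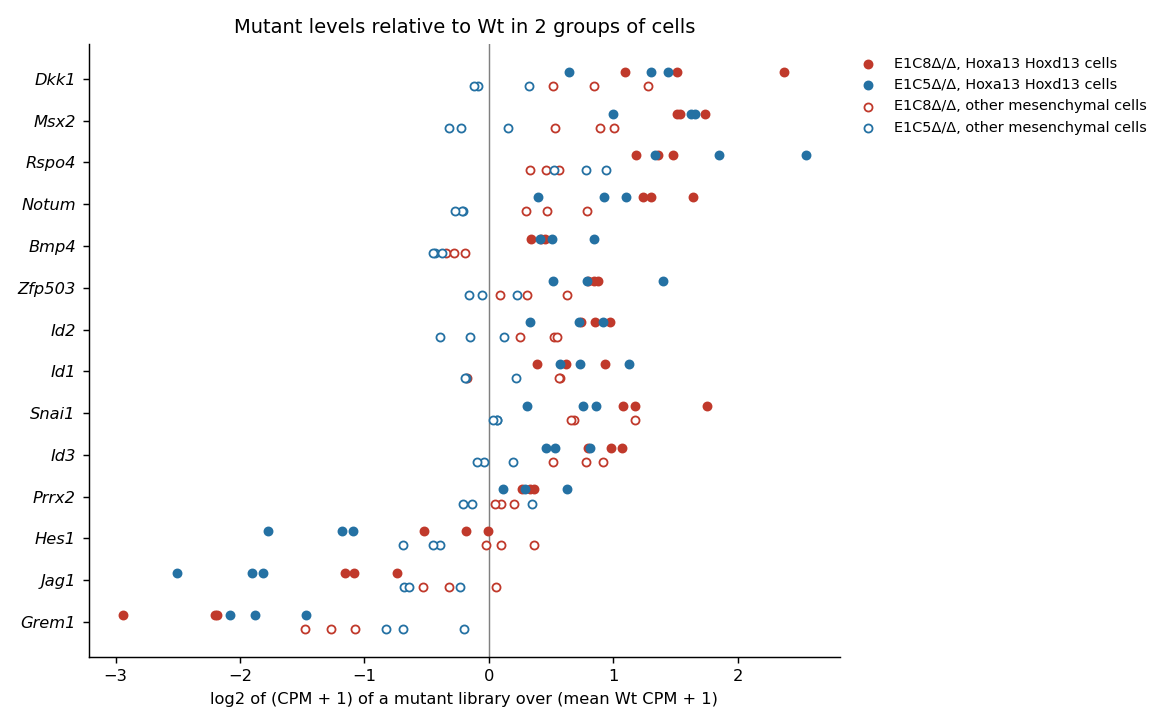
Log2 of each mutant library's level over the mean Wt level (1 CPM added to both) in *Hoxa13*/*Hoxd13* cells (filled) and in the other mesenchymal cells (open), for 14 genes whose mutant effect differed between these cells. *Msx2*, *Dkk1* and *Rspo4* lie higher in *Hoxa13*/*Hoxd13* cells, and *Grem1* and *Jag1* lower.

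For some of these genes the mutant effect in the *Hoxa13*/*Hoxd13* cells differed from that in the rest of the mesenchyme. A test of the difference between both effects called 28 of 13222 genes (0.212%; 0.166% with a higher and 0.0454% with a lower effect in *Hoxa13*/*Hoxd13* cells), of which 15 were named genes. *Grem1* fell from 50.6 to 11.3 CPM in *Hoxa13*/*Hoxd13* cells and from 28.9 to 15.5 CPM in the other cells, means over the Wt and the 6 mutant libraries (difference of effects −1.20 ± 0.12, edgeR adjusted p = 9.8e-06). *Msx2* went from 14.5 to 43.7 CPM against 32.7 to 44.4 CPM (1.15 ± 0.17, edgeR adjusted p = 0.00263). *Bmp4* went from 68.0 to 96.9 CPM against 85.1 to 66.9 CPM (0.81 ± 0.09, edgeR adjusted p = 2.54e-05), so that the means moved in opposite directions. *Dkk1* (10.2 to 30.6 against 13.8 to 20.7 CPM) and *Jag1* (50.9 to 18.4 against 5.79 to 4.27 CPM) differed by 1.25 and −0.97. *Tfap2b* was not called, with 102 to 25.7 against 6.71 to 2.00 CPM, a difference of effects of −0.18. *Id1*, *Id2* and *Id3* differed by 0.60, 0.61 and 0.42. Without E1C8Δ/Δ replicate 3, 8 genes were called, without Wt replicate 2, 13, and without Wt replicate 1, 15.

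Against the neighbours by the rule with *Hoxd13* but not *Hoxa13*, the same test called 2 of 11861 genes (0.0169%; 0.00843% with a higher and 0.00843% with a lower effect) and none of the 15 (521 genes at an unadjusted p under 0.05). The 2 were *Mab21l2* (0.43 ± 0.06, edgeR adjusted p = 0.0217) and *Tcf7l2* (−0.53 ± 0.08, edgeR adjusted p = 0.0489), named after their values were seen. A missed call does not show that the effects were alike. A difference of effects against *Shh* cells was not tested. The difference of effects stayed about as large as against the other mesenchymal cells for *Dkk1* (1.56 ± 0.27, edgeR adjusted p = 0.0855, against 1.25), *Notum* (1.23 ± 0.25, edgeR adjusted p = 0.138, against 1.01) and *Zfp503* (0.64 ± 0.13, edgeR adjusted p = 0.138, against 0.69). It was 0.63 ± 0.13 for *Bmp4* (edgeR adjusted p = 0.138, against 0.81), −0.70 ± 0.18 for *Jag1* (against −0.97) and −0.69 ± 0.20 for *Grem1* (against −1.20). *Tfap2b* went from 6.14 to 3.44 CPM in the neighbours, a difference of −0.86 ± 0.35 (edgeR unadjusted p = 0.0232, adjusted p = 1) against −0.18. The difference was smaller for *Msx2* (0.44 ± 0.23, against 1.15), *Rspo4* (0.44 ± 0.22, against 1.04) and *Id3* (0.12 ± 0.09, against 0.42). In the neighbours *Dkk1* went from 21.1 to 26.3 CPM and *Bmp4* from 89.8 to 79.4 CPM, while *Msx2* went from 16 to 38.0 CPM, *Rspo4* from 6.55 to 17.3 CPM and *Grem1* from 69.9 to 25.2 CPM.

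**Figure D5:**
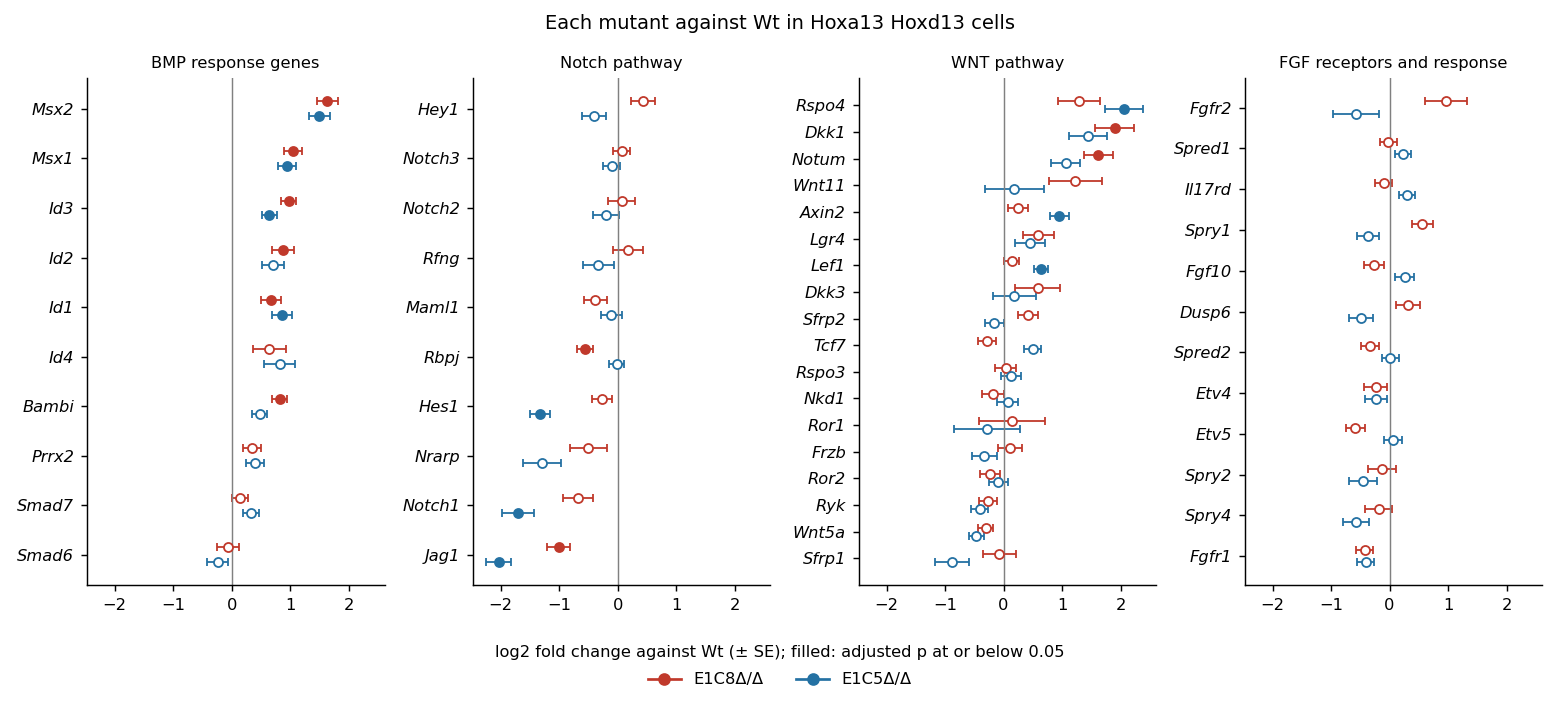
Log2 fold change with its standard error of E1C8Δ/Δ and of E1C5Δ/Δ against Wt in *Hoxa13*/*Hoxd13* cells for genes of the BMP response, Notch, WNT and FGF lists, filled where the adjusted p was at or below 0.05. *Msx1* and *Msx2* are raised in both mutants, whereas *Hes1* and *Notch1* are filled for E1C5Δ/Δ and open for E1C8Δ/Δ.

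The mutants were also set against Wt singly and against each other, comparisons that share the Wt libraries. With E1C8Δ/Δ alone 342 genes were called (3.18%; 1.28% higher and 1.90% lower), with E1C5Δ/Δ alone 54 (0.502%; 0.232% higher and 0.270% lower), and between the mutants 388 (3.61%), of which 1.28% of all genes were higher and 2.32% lower in E1C8Δ/Δ. When 1 library was left out these counts were 107 to 546, 17 to 53 and 60 to 467. With embryo sex as a covariate they were 31, 6 and 279, and without doublets 692, 59 and 578. Of the 10 BMP response genes, 6 rose in E1C8Δ/Δ (median 0.75) and 4 in E1C5Δ/Δ, namely *Id1*, *Id3*, *Msx1* and *Msx2* (median 0.68). *Tfap2b* fell by 1.88 on the log2 scale in E1C8Δ/Δ (edgeR adjusted p = 0.000102) and by 1.93 in E1C5Δ/Δ (edgeR adjusted p = 0.00015), with no difference called between them.

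*Jag1* and *Hes1* were called between the mutants. *Jag1* had a log2 fold change of −1.01 in E1C8Δ/Δ and −2.04 in E1C5Δ/Δ, a difference of 1.03 ± 0.23 (edgeR adjusted p = 0.0264), and *Hes1* of −0.27 and −1.33, a difference of 1.06 ± 0.18 (edgeR adjusted p = 0.0111). *Hey1* differed too (0.85, edgeR adjusted p = 0.0411), though neither mutant was called against Wt. *Axin2* and *Lef1*, a target and a transcription factor of WNT signalling, were higher in E1C5Δ/Δ than in E1C8Δ/Δ (−0.70 and −0.50) and rose against Wt in E1C5Δ/Δ (0.96 and 0.64). *Rbpj*, the DNA-binding partner of Notch, fell in E1C8Δ/Δ (−0.56), and *Dlx5* rose there (1.35), each differing between the mutants. Of the cell cycle lists, *Mki67* (−0.75), *Mcm4* (−0.56), *Cenpe* (−0.52) and *Tpx2* (−0.47) were lower in E1C8Δ/Δ than in E1C5Δ/Δ. The other genes of these lists were not called, and several lay above 0, such as *Ube2c* (0.45) and *Tyms* (0.41). The immediate early genes *Ier2* (0.81) and *Dusp1* (0.88), known to respond to dissociation, were higher in E1C8Δ/Δ than in E1C5Δ/Δ. The summed level of the dissociation stress list was 798 to 1098 CPM in E1C8Δ/Δ and 595 to 721 CPM in E1C5Δ/Δ libraries, with 770 to 958 CPM in Wt, and its part in the other differences was not tested. Of 21 list genes that differed between the mutants, only *Ier2* and *Dusp1* passed in all fits without 1 mutant library. *Hes1* missed the threshold in the fit without E1C8Δ/Δ replicate 2 (edgeR adjusted p = 0.0551), whereas *Jag1* missed it in each of the 6 fits (edgeR adjusted p = 0.0548 to 0.0850), as did *Hey1*, *Rbpj* and *Dlx5*. *Axin2* passed only without E1C8Δ/Δ replicate 3 or E1C5Δ/Δ replicate 2, *Lef1* only without E1C5Δ/Δ replicate 1, *Mki67* only without E1C8Δ/Δ replicate 2 or E1C5Δ/Δ replicate 2, and *Mcm4* in all but those without E1C8Δ/Δ replicate 2 or 3. With embryo sex as a covariate *Hey1*, *Axin2*, *Lef1*, *Rbpj*, *Dlx5*, *Tbx2* and *Etv5* were no longer called (edgeR adjusted p = 0.0502 to 0.0713). Without E1C8Δ/Δ replicate 2, 60 genes were called between the mutants, and among the males none, with 1 library per mutant and 830 genes at an unadjusted p under 0.05 in edgeR.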

How the data were processed

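The authors deposited, for each of 9 libraries, the counts of UMIs of 32289 features in each barcode that CellRanger kept, without normalization. The submitters' processing notes name Cell Ranger 6.0.1, Seurat 4.3.0.1 and mm10, and whether counting used strand is not given in the sources used here. Groups were taken from the sample titles. The members and the gene lists were chosen with earlier results of these data known.

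UMIs were summed per library over each kind of cell, where a library held at least 20 of its cells, and filterByExpr removed genes with low counts. The 1809 features on X or Y and 4 transgene features were not tested. The sums of *Hoxa13*/*Hoxd13* cells held 1226276 to 20669028 UMIs. Genotypes were compared over all 9 libraries with edgeR 4.0.16 (TMM, quasi-likelihood, Benjamini-Hochberg adjustment, threshold 0.05), and cell types with the library as a term. Standard errors were the fold change divided by the root of the F statistic. *Xist* and Y-linked genes gave the sex of each embryo. Shares of cells were compared by exact permutation of library labels on cells thinned to 10000 UMIs, and exact intervals cover counting error only. Doublets were called from how many simulated doublets lay near a cell, at 0.8% per 1000 barcodes.

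Named genes were those of the lists and, per direction, up to 8 genes with the largest called change, at least 10 CPM in the higher group and all libraries on the same side. In simulated counts, 85.5% of 200 genes changed by 1 on the log2 scale were recovered among 10757 for both mutants against Wt, with 15 false calls. The simulation held no effect of embryo sex and no outlying library, so it does not measure how firm the calls in the data are. Alternatives were DESeq2 1.42.0, its size factors, other filters, depth windows and rule thresholds, doublet removal, a replicate block, sex, and leaving out each library. Repeated thinning, the fit of male embryos, the libraries of the depth window at all depths and the difference of effects against *Hoxd13* cells without *Hoxa13* were added after seeing the data. R 4.3.3, limma 3.58.1, Python 3.11.15, numpy 2.4.6, scipy 1.17.1, scikit-learn 1.9.0 and matplotlib 3.10.9 were used.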

Additional observations from a re-analysis of the deposited data

Results flagged for a closer look

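The mutant effect on 15 named genes differed between *Hoxa13*/*Hoxd13* cells and the other mesenchymal cells, by an interaction term in edgeR with an adjusted p at or below 0.05. The effect in *Hoxa13*/*Hoxd13* cells minus that in the other cells, on the log2 scale, was −1.20 for *Grem1*, −0.97 for *Jag1* and −0.55 for *Hes1*. Among genes of BMP signalling and its response it was 0.81 for *Bmp4*, 1.15 for *Msx2*, 0.60 for *Id1*, 0.61 for *Id2*, 0.42 for *Id3* and 0.30 for *Prrx2*. Among secreted WNT modulators it was 1.25 for *Dkk1*, 1.04 for *Rspo4* and 1.01 for *Notum*, and among other genes 0.54 for *Snai1*, 0.69 for *Zfp503* and 2.93 for *Cck*, which stood at 0.411 ± 0.197 CPM (SD, n = 3) in Wt *Hoxa13*/*Hoxd13* cells. When the other cells were *Hoxd13* cells without *Hoxa13*, none of the 15 was called, though the difference stayed at 1.56 for *Dkk1*, 1.23 for *Notum*, 0.64 for *Zfp503* and 0.63 for *Bmp4*.

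The effect of E1C8Δ/Δ and that of E1C5Δ/Δ differed for 21 of 198 list genes tested in *Hoxa13*/*Hoxd13* cells, 12 higher and 9 lower in E1C8Δ/Δ, by the edgeR contrast of the mutants, which called 3.61% of all 10754 genes, 1.28% higher and 2.32% lower. All libraries of 1 mutant lay on 1 side of those of the other for 19 of them, 14 passed with embryo sex as a covariate, and 2, *Ier2* and *Dusp1*, passed without any 1 mutant library. The differences, E1C8Δ/Δ minus E1C5Δ/Δ on the log2 scale, were 1.03 for *Jag1*, 1.06 for *Hes1*, 0.85 for *Hey1* and −0.55 for *Rbpj* in the Notch list. They were 0.93 for *Spry1*, 0.81 for *Dusp6* and −0.65 for *Etv5* among FGF response genes, and −0.70 for *Axin2*, −0.78 for *Tcf7* and −0.50 for *Lef1* among WNT genes. Cell cycle genes gave −0.75 for *Mki67*, −0.56 for *Mcm4*, −0.52 for *Cenpe* and −0.47 for *Tpx2*, and dissociation stress genes 0.81 for *Ier2*, 0.88 for *Dusp1* and 1.01 for *Junb*. The others were 1.37 for *Dlx5*, 0.99 for *Tbx2*, 0.71 for *Ephb3* and 3.00 for *Pax1*. *Pax1* rested on few UMIs, 1, 88 and 27 in the E1C8Δ/Δ and 2, 0 and 17 in the E1C5Δ/Δ replicates, and overlapped between the mutants.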

How the results depend on the processing

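The cause of the changes below was not tested. The difference in the share of *Hoxa13*/*Hoxd13* cells, −0.51 points (p = 0.0595), passed the threshold in unthinned cells (−2.985 points), thinned to 5000 UMIs (−0.189), with at least 3 UMIs of *Hoxd13* (−0.472), without the limit on *Shh* (−0.718), without doublets (−0.530) and as the mean of repeated draws (−0.680), by two-sided exact permutation tests, and ranged from −0.735 to −0.358 when 1 library was left out. The same fits gave −27.3 to −22.0 points for *Tfap2b*, −30.0 to −17.2 for *Jag1*, −20.7 to −15.4 for both genes and −7.10 to 5.15 for *Hey1*, whose sign turned without Wt replicate 3 (5.15) and without E1C5Δ/Δ replicate 1 (0.899). Unthinned, *Jag1* gave −25.8 points and did not pass.

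With no filter on low counts, 415 genes were called in both mutants, 863 in E1C8Δ/Δ, 361 in E1C5Δ/Δ, 916 between the mutants and 132 for the difference of effects. Without doublets, 127 were called in both mutants, 692 in E1C8Δ/Δ and 80 for the difference of effects. At 3 or more UMIs of *Hoxd13*, without E1C8Δ/Δ replicate 1, both mutants gave 49, E1C8Δ/Δ 106 and the mutants against each other 87, and within the interquartile range of depth, in 7 libraries (without Wt replicate 3 and E1C8Δ/Δ replicate 1), both mutants gave 48, E1C8Δ/Δ 185 and E1C5Δ/Δ 25. The same 7 libraries at all depths gave 32 in both mutants, 101 in E1C8Δ/Δ, 44 in E1C5Δ/Δ and 244 between the mutants, and E1C8Δ/Δ replicate 1 alone left out gave 46 in both mutants. With embryo sex as a covariate the counts were 6 in both mutants, 31 in E1C8Δ/Δ and 6 in E1C5Δ/Δ, and in males alone 6, 9 and 3, with 0 between the mutants in edgeR (830 at an unadjusted p under 0.05). The males were 3 Wt libraries and 1 of each mutant, so that each lone mutant library was assumed to vary like Wt. With *Hoxd13* cells without *Hoxa13* in place of the other mesenchymal cells, 2 genes were called for the difference of effects (521 at an unadjusted p under 0.05 in edgeR). DESeq2 called 125 genes in both mutants and 354 in place of 604 against *Shh* cells, and Wt libraries alone called 3671 in place of 5608 against other mesenchymal cells. Leaving out 1 library gave 23 to 88 genes in both mutants, 107 to 546 in E1C8Δ/Δ, 17 to 53 in E1C5Δ/Δ, 60 to 467 between the mutants, 390 to 580 against *Shh* cells, 2341 to 2849 against *Hoxd13* cells, 4756 to 5672 against other mesenchymal cells and 8 to 42 for the difference of effects. Against other mesenchymal cells, *Id1* (−0.12) and *Smad7* (−0.015) turned in Wt libraries alone, and *Cenpf* (−0.10) and *Plk1* (−0.057) at like depth, without E1C8Δ/Δ replicate 1.

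Replicate numbers did not pair the libraries. Deviations of same-numbered libraries correlated between −0.21 and 0.13, those of others between −0.20 and 0.31, and 1 library correlated best with its own number. With the replicate block, 55 genes were called in both mutants, 162 in E1C8Δ/Δ, 31 in E1C5Δ/Δ and 161 between the mutants, and *Hes1*, *Rspo4*, *Bambi*, *Bmp4*, *Zfp503*, *Evx2*, *Nap1l5* and *Alx1* were among the named genes not called in both mutants. Libraries with few of these cells, 22 in E1C8Δ/Δ replicate 1 and 42 in Wt replicate 3, limit the precision of shares and of low genes.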
